A study of Caenorhabditis elegans with 2 samples.

Results

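MicroRNA (miRNA) genes with a candidate HPL-2 region nearby are the subject. A miRNA gene is transcribed as a long primary transcript that folds into a hairpin. The nuclear enzyme Drosha cuts the hairpin out, Dicer trims it to a short duplex, and 1 strand, the mature miRNA, is loaded onto an Argonaute protein. The mature miRNA then represses messenger RNAs that pair with its seed, bases 2 to 8 counted from its 5′ end, so miRNAs with the same seed are grouped as a family. HPL-2 is a worm homologue of HP1, a protein that binds methylated histone H3 in repressed chromatin and is also found at active genes. In the worm, miRNAs time larval development, fix cell identities and set survival during starvation.

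The members were chosen by measured values, so the counts and signals that chose them are a description and were not tested. A member is a gene of biotype miRNA in the WBcel235 annotation with at least 1 pooled ce11 candidate summit inside it or within 1000 bp of it. For each gene the candidate with the highest deposited signal was taken, and the same window was read in the list of each library. Of 261 annotated miRNA genes, 145 (55.6%) were members and 116 were not. The window is wide for a compact genome: 44.3% of all positions would put a hairpin of the median length, 95 bp, within reach of a pooled summit.

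Both libraries come from chromatin immunoprecipitation and sequencing (ChIP-seq) of whole first-stage (L1) larvae, mixed in sex, which were synchronised by bleaching and starved. They are biological replicates 1 and 3 of a single group. The strain, YL474, carries lin-35(n745), unc-119(ed3) and the array vrIs64, in which the ges-1 promoter drives HPL-2 with GFP and FLAG tags and unc-119(+) is the marker. All animals therefore share the mutation in lin-35, the worm retinoblastoma homologue, and no group with wild-type lin-35 or with food is among the samples. The ges-1 promoter is intestinal, and the labels name hpl-2 as antibody but eGFP-hpl-2 as target, so it cannot be told whether tagged protein of the array's cells or HPL-2 of all tissues was recovered. No input or untagged library was analysed here, and the files hold no read counts, so sequencing depth is unknown. The lists hold 30000 candidates each, with a signal of 7.88 to 253 in the pooled list, 6.69 to 198 in replicate 1 and 2.01 to 58.0 in replicate 3. Because those scales differ, levels in a library are given beside their percentile, the share of that library's 30000 candidates with a lower signal. The authors' thresholded list holds the 857 strongest pooled candidates, or 2.86% of them, with a lowest signal of 37.9, and "thresholded" below means that a gene's highest region is in it.

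The 3 strongest miRNA regions away from protein-coding gene starts lay at hairpins that share a seed with other genes. Mature sequences are shown because the grouping by family rests on them: the seed is in capitals, each sequence runs 5′ to 3′, and all were read from the RefSeq copy of WBcel235 at the annotated position of the mature product. The mir-51 family has the seed ACCCGUA in every gene, the mir-64 family AUGACAC, the mir-239 family UUGUACU and the mir-80 family GAGAUCA. The mir-58a product is set beside mir-80 because their seeds are alike but not the same.
mir-51-5p: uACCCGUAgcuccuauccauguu
mir-52-5p: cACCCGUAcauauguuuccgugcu
mir-53-5p: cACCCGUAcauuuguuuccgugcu
mir-54-3p: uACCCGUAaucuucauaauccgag
mir-55-3p: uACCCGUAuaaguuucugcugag
mir-56-3p: uACCCGUAauguuuccgcugag
mir-229-5p: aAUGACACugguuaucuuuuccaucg
mir-63-3p: uAUGACACugaagcgaguuggaaa
mir-64-5p: uAUGACACugaagcguuaccgaa
mir-66-5p: cAUGACACugauuagggauguga
mir-238-3p: uUUGUACUccgaugccauucaga
mir-239a-5p: uUUGUACUacacauagguacugg
mir-239b-5p: uUUGUACUacacaaaaguacug
mir-80-3p: uGAGAUCAuuaguugaaagccga
mir-58a-3p: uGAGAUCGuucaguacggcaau

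The pooled signal of the 145 members ran from 8.12 to 128, with a median of 13.0 against 11.4 over the whole pooled list. Their median percentile in the pooled list was 62.7, and 93 members lay above the list's median. The upper end was heavier than that median conveys, since 41 members (28.3%) had their highest region in the top 10% of the list. Neighbouring hairpins can share a region. The 145 genes had 120 distinct highest regions, of which 12 were shared by at least 2 genes, 37 genes in all. Counted once, 33 of the 120 regions (27.5%) were in the top 10%. A gene with several summits in reach has more chances of a high one. Of the 84 members with 1 summit, 3 (3.57%) were thresholded, of the 39 with 2 summits 7 (17.9%), and of the 22 with 3 or more 12 (54.5%).

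Thresholded regions lay at 22 of the 145 members (15.2%), or at 15 of the 120 distinct regions (12.5%). The share of all pooled candidates in that list is 2.86%, but it is not a matched background, because the rule takes the highest of up to 5 summits per gene. Taken as single summits, 16 of the 196 in the members' windows (8.16%) were thresholded. The 27130 other genes of any class with a candidate in the same window include 7630 piRNA genes. Of the 27130, 6.26% were thresholded by their highest region. The value was 32.2% for snoRNA genes, 20.5% for snRNA genes, 11.1% for tRNA genes and 1.05% for piRNA genes, and for protein-coding genes with a candidate within 1000 bp of a 5′ end it was 8.02%. The miRNA share thus lay above the pool of other genes and below the snRNA genes, which include those of the spliceosomal RNAs, and the snoRNA genes, which encode the small nucleolar RNAs that guide ribosomal RNA modification. These shares chose or follow from the same signals and were not tested.

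**Figure D1:**
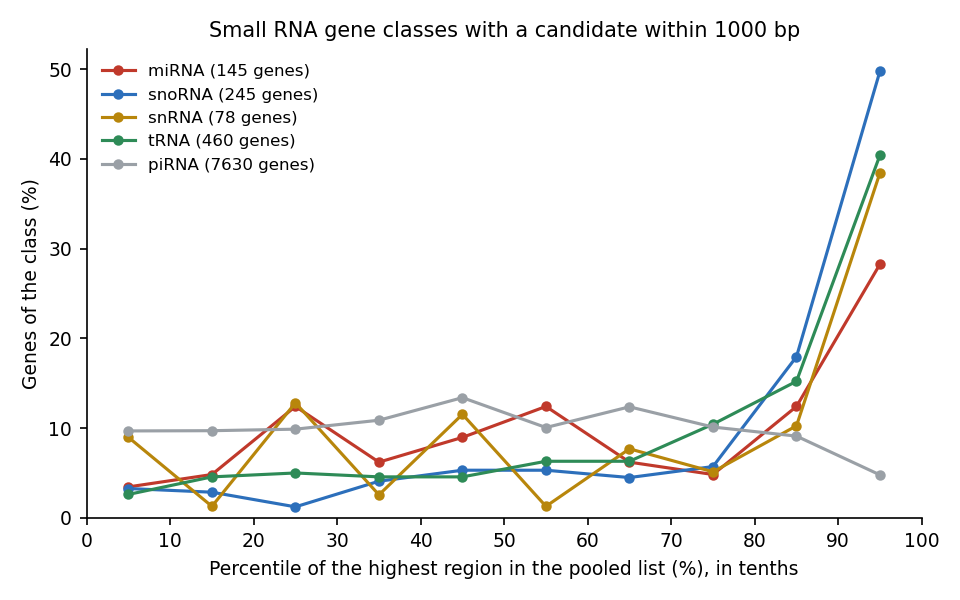
Percent of the genes of each small RNA class (vertical axis) whose highest pooled region falls in each 10% step of the pooled list (horizontal axis, percentile), for genes with a candidate within 1000 bp. Of the miRNA genes 28.3% were in the top 10%, fewer than of the snoRNA, snRNA and tRNA genes and more than of the piRNA genes.

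The plot of gene classes shows the whole distribution, again without a test. The median percentile was 62.7 for miRNA genes, 89.9 for snoRNA genes, 77.6 for snRNA genes, 84.8 for tRNA genes and 46.7 for piRNA genes, the germline small RNAs whose genes are packed mostly on chromosome IV. A candidate within 1000 bp was found at 70.8% of snoRNA, 60.5% of snRNA, 75.2% of tRNA and 49.7% of piRNA genes, beside the 55.6% of miRNA genes. Per summit, 17.8% of those near snoRNA genes, 18.9% near snRNA genes, 6.72% near tRNA genes and 1.49% near piRNA genes were thresholded.

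The mir-51 family was the only family of more than 3 genes in which every gene was a member and more than 1 region was thresholded. Its miRNAs act together in embryonic development. All 6 genes were members through 4 regions. The cluster mir-54, mir-55 and mir-56 had the highest signal of a miRNA region with no protein-coding 5′ end within 500 bp, 67.2 in the pooled list. Its region is X:13145164-13145539 on ce11. The 3 hairpins lie in an intron of F09A5.3, on the strand opposite to that gene. The summit lay 258 bp upstream of mir-54, 428 bp upstream of mir-55 and 565 bp upstream of mir-56, and the nearest protein-coding 5′ end was 3751 bp away. It also falls 433 bp downstream of mir-55b, annotated on the other strand across mir-55. The signal at this summit was 36.6 in replicate 1 (percentile 98.2) and 29.0 in replicate 3 (percentile 99.9), so both libraries placed it near the top of their lists. The remaining summits in the window had pooled signals of 25.3, 18.7 and 17.6, all downstream of the cluster.

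The gene mir-52, a hairpin outside protein-coding genes, had a pooled signal of 41.8 at IV:14033985-14034360, 9607 bp from the nearest protein-coding 5′ end. It was the only member with a pair of thresholded summits in its window, 66 bp downstream and 89 bp upstream of the hairpin, the latter with a signal of 40.1. At the highest summit, replicate 1 stood at percentile 94.1 with 22.5 and replicate 3 at 99.4 with 18.9. Elsewhere in the window replicate 1 reached 35.6 (percentile 98.0). The other genes of the family were lower. The pooled signal was 23.0 at mir-53, with its summit 126 bp upstream and percentiles of 79.9 in replicate 1 and 51.7 in replicate 3, and 13.3 at mir-51, at percentiles 54.7 in replicate 1 and 49.2 in replicate 3. Elsewhere in the window of mir-51, replicate 3 reached 7.25 (percentile 89.99). These 2 genes lie near each other on chromosome IV, far from mir-52, and have the same seed. Within the family, the pooled values thus spanned 13.3 to 67.2.

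**Figure D2:**
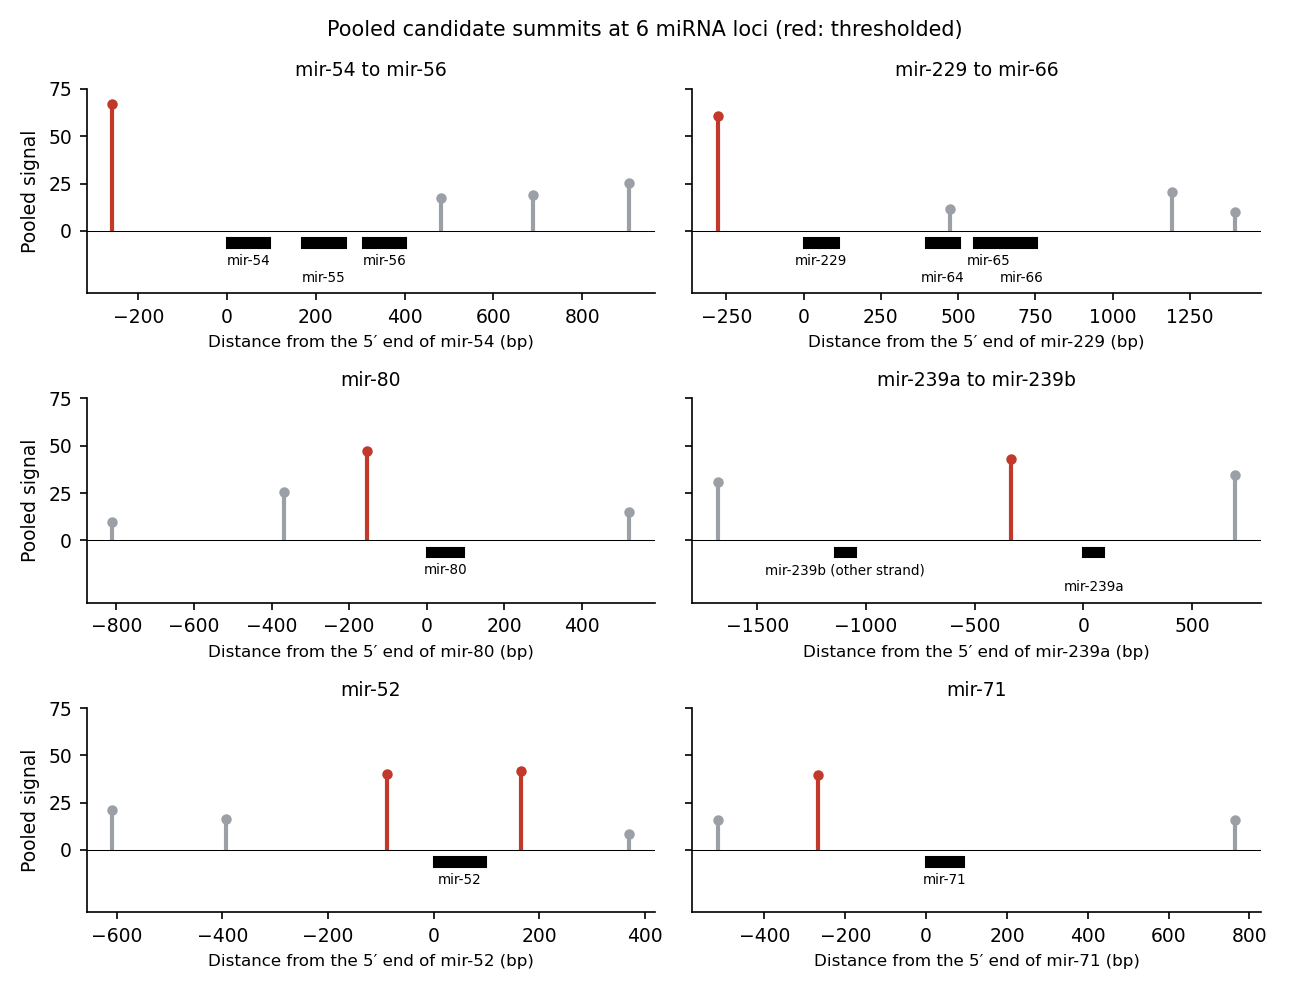
Pooled signal (vertical axis) of every candidate summit in the windows of 6 miRNA loci, by distance from the 5′ end of the named hairpin in bp (horizontal axis, upstream to the left). Black boxes are hairpins and red stems are thresholded summits: each locus has 1 red stem, except mir-52 with a pair.

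The cluster of mir-229, mir-64, mir-65 and mir-66 had 1 thresholded region, III:2171988-2172363, with a pooled signal of 61.0. The hairpins lie in an intron of gcn-1, a translational regulator, on the same strand. The summit was 276 bp upstream of mir-229, the first hairpin, and 20231 bp from the nearest protein-coding 5′ end. The libraries differed here. At the summit, the signal was 57.3 in replicate 1 (percentile 99.5) and 3.01 in replicate 3 (percentile 36.1). The highest replicate 3 candidate anywhere in the windows stood at percentile 83.4 for mir-229 and at 76.4, with a signal of 5.17, for the other 3 genes. Only replicate 1 thus placed this region near the top of its list. The fifth gene with this seed, mir-63, lies on X and had a pooled signal of 12.7, at percentile 35.3 in replicate 1 and with no replicate 3 candidate within 200 bp of the summit.

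Both mir-239 genes, divergent hairpins on X whose loss lengthens life, shared 1 thresholded region between them, X:11791923-11792298, with a pooled signal of 43.1. Both hairpins lie outside protein-coding genes. The summit lay 334 bp upstream of mir-239a, 712 bp upstream of mir-239b and 6394 bp from the 5′ end of rsd-3. The snoRNA gene C34E11.20 lies within 250 bp of this summit. Signal from it and from the miRNA genes cannot be told apart at this spacing. The library signals at the summit were 28.6 in replicate 1 (percentile 96.8) and 16.1 in replicate 3 (percentile 99.1). Further summits of 34.5 and 30.9 flank the pair on the outer sides. The third gene with this seed, mir-238 on III, was below the threshold with 29.1, its summit 26 bp upstream, and stood at percentile 95.9 there in replicate 1. Replicate 3 had no candidate within 200 bp of that summit, and its highest in the window was at percentile 97.2. All 3 genes of this family were thus in the top 10% of the pooled list.

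Near mir-238 on III lies mir-80, with a pooled signal of 47.1 at III:8865333-8865708. The summit was 154 bp upstream of the hairpin, and the nearest protein-coding 5′ end was 11607 bp away. Replicate 1 gave 38.8 (percentile 98.4) and replicate 3 gave 8.73 (percentile 94.1), so it was high in both. Of the 6 genes with its seed, mir-80 was the only member: mir-81, mir-82, mir-58b, mir-58c and mir-2209a had no pooled summit within 1000 bp. The related mir-58a, one of the most abundant worm miRNAs, is a hairpin in an intron of Y67D8A.2. Its pooled signal was 41.3 at IV:3233644-3234019, with the summit 482 bp downstream. There replicate 1 stood at percentile 98.1 and replicate 3 at 65.5. A separate replicate 3 candidate in the window of mir-58a reached 7.32 (percentile 90.3).

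The remaining thresholded regions away from gene starts were at mir-71, mir-47 and mir-2214. The gene mir-71 promotes long life and survival of starved L1 larvae. Its hairpin lies in an intron of ppfr-1. The region, I:9380099-9380474 with 39.8 in the pooled list, was the lowest of the thresholded ones. It lay 267 bp upstream of the hairpin and 9297 bp from the nearest protein-coding 5′ end. It was high in both libraries, with 29.4 in replicate 1 (percentile 97.0) and 16.2 in replicate 3 (percentile 99.1). At mir-47, whose hairpin lies outside protein-coding genes, the pooled signal was 43.7 at X:13920440-13920815, 622 bp upstream of the hairpin. Replicate 1 gave 39.5 (percentile 98.4), and replicate 3 had no candidate within 200 bp of the summit and only 2.22 (percentile 8.91) in the window. Its relative mir-46, which shares the seeds of both arms, had a pooled signal of 16.7 and no candidate in replicate 3. The mir-2214 hairpin lies in an intron of B0361.11. Its pooled signal was 43.2 at III:7278444-7278819, with the summit 83 bp upstream and percentiles of 97.5 and 90.6 in replicates 1 and 3.

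The other 6 thresholded regions had a protein-coding 5′ end within 500 bp, and these include the highest signals of all members. The region with a pooled signal of 128 counted for mir-354, I:14469254-14469394, lay 857 bp upstream of that hairpin but 152 bp from the 5′ end of ekl-4. Its library percentiles were 99.9 and 99.6 in replicates 1 and 3. The gene mir-354 itself is annotated over an exon of rps-20, a ribosomal protein gene. At mir-5549 the summit was inside the hairpin, with 92.1 in the pooled list at III:6971885-6972260, and 180 bp from the 5′ end of rfc-4, a clamp loader subunit of DNA replication. It stood at percentiles 99.6 and 99.8. At mir-1824 the signal was 83.5 at I:13514224-13514599, 365 bp downstream of the hairpin and 122 bp from the 5′ end of Y87G2A.18, with percentiles of 99.7 and 97.9. Of these 6 regions, 5 were nearer to the protein-coding 5′ end than to the hairpin, all but that of mir-5549. Those of mir-1824 and mir-4938 lay downstream of their hairpins, by 365 and 483 bp. Whether a region belongs to a miRNA promoter or a protein-coding one was not tested.

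Of the lower 3 such regions, that of mir-5595, II:14399674-14400049 with a signal of 43.5, lay 190 bp from a 5′ end of nurf-1, which encodes a chromatin remodelling subunit, with percentiles of 95.9 and 98.8. That of mir-4938, III:5785521-5785896 with 43.8, lay 386 bp from the 5′ end of Y37B11A.3. There replicate 1 stood at percentile 98.7, while replicate 3 had no candidate within 200 bp of the summit and only 2.44 (percentile 17.4) in the window. That of mir-353, I:4584693-4585068 with 46.1, lay 993 bp upstream of the hairpin, at the limit of the window, and 234 bp from the 5′ end of rpl-24.1, a ribosomal protein gene and its host. At that summit both libraries were high, at percentiles 97.7 and 99.1.

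**Figure D3:**
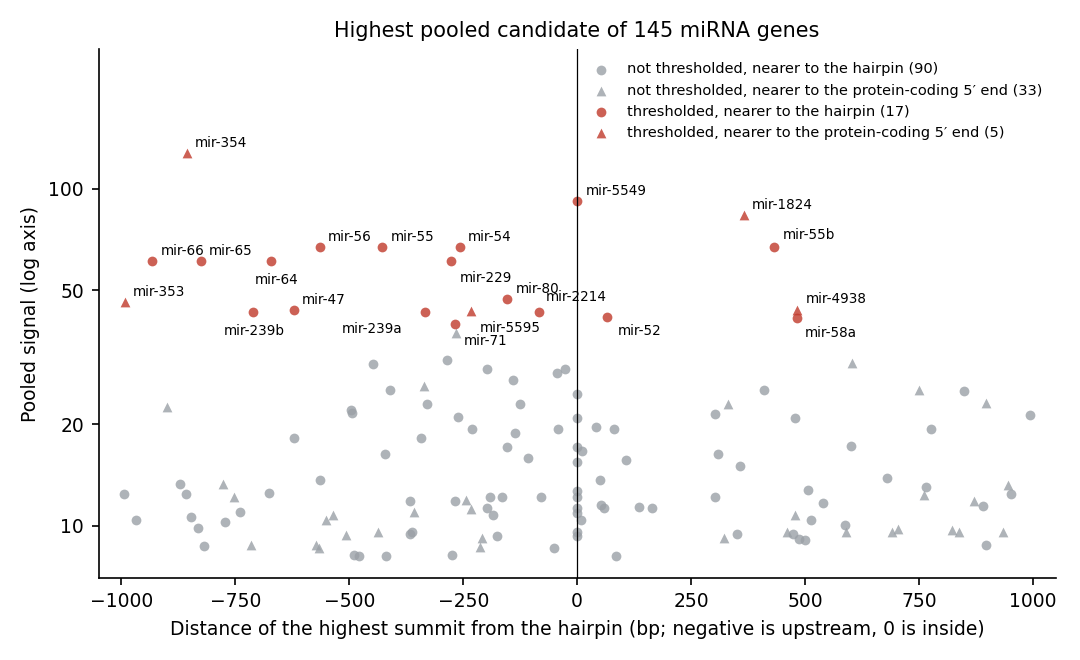
Pooled signal of each member's highest candidate (vertical log axis) by its summit's distance from the hairpin in bp (horizontal axis, negative upstream, 0 inside). Circles are nearer to the hairpin and triangles to a protein-coding 5′ end; of the 22 thresholded genes in red, 16 lie upstream, 1 inside and 5 downstream.

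The side of the hairpin was not used by the rule. Over all members, 79 highest summits were upstream of the hairpin, 11 inside and 55 downstream. For 107 members (73.8%) the summit was nearer to the hairpin than to any protein-coding 5′ end, and for 42 (29.0%) such an end lay within 500 bp. Among the thresholded members 16 summits were upstream, 1 inside and 5 downstream, as the plot of signal by distance shows. Genes of a cluster repeat the same summit, so the regions were also counted once. Of the 15 thresholded regions, 10 were upstream of a member and 10 nearer to a hairpin than to a protein-coding 5′ end, and 7 were both. Of the other 105 regions, 59 were upstream and 77 nearer to a hairpin. More than 500 bp downstream lay the highest summits of 26 members, and 0 of these were thresholded. More than 500 bp upstream lay those of 29 members, and 8 were. These are counts of genes and not of regions. Of the 8, mir-64, mir-65 and mir-66 share 1 region, which lay 276 bp upstream of mir-229. The regions of mir-56 and mir-239b were also closer to a neighbour, 258 bp upstream of mir-54 and 334 bp upstream of mir-239a. Those of mir-354 and mir-353 lay 152 and 234 bp from a protein-coding 5′ end. The last of the 8 was mir-47, with its summit 622 bp upstream. Among snoRNA genes 141 highest summits were upstream and 77 downstream, and among piRNA genes 3796 and 3751. The difference between sides and between classes was not tested.

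Thresholded regions were counted by the setting of the hairpin. Of 99 miRNA genes in introns 57 were members and 15 of these were thresholded, through 9 of 47 regions. Outside protein-coding genes, 84 of 152 were members and 6 were thresholded, through 5 of 69 regions. Within introns, 9 of 39 members on the host's strand were thresholded, through 6 of 36 regions. On the opposite strand 6 of 18 were, through 4 of 12 regions. The region of the mir-54 cluster is in both counts through mir-55b. Members made up 57.6% of the miRNA genes in introns and 55.3% of those outside protein-coding genes.

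By chromosome, the thresholded members were 4 of 19 on I, 1 of 30 on II, 8 of 18 on III, 2 of 22 on IV, 0 of 14 on V and 7 of 42 on X. The 8 genes on III came from 5 regions and the 7 on X from 3, so clusters carry much of both counts. On X, only 2 of the 42 highest summits had a protein-coding 5′ end within 500 bp, and on II 14 of 30 did. The median percentile ran from 33.9 on V to 92.8 on III.

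**Figure D4:**
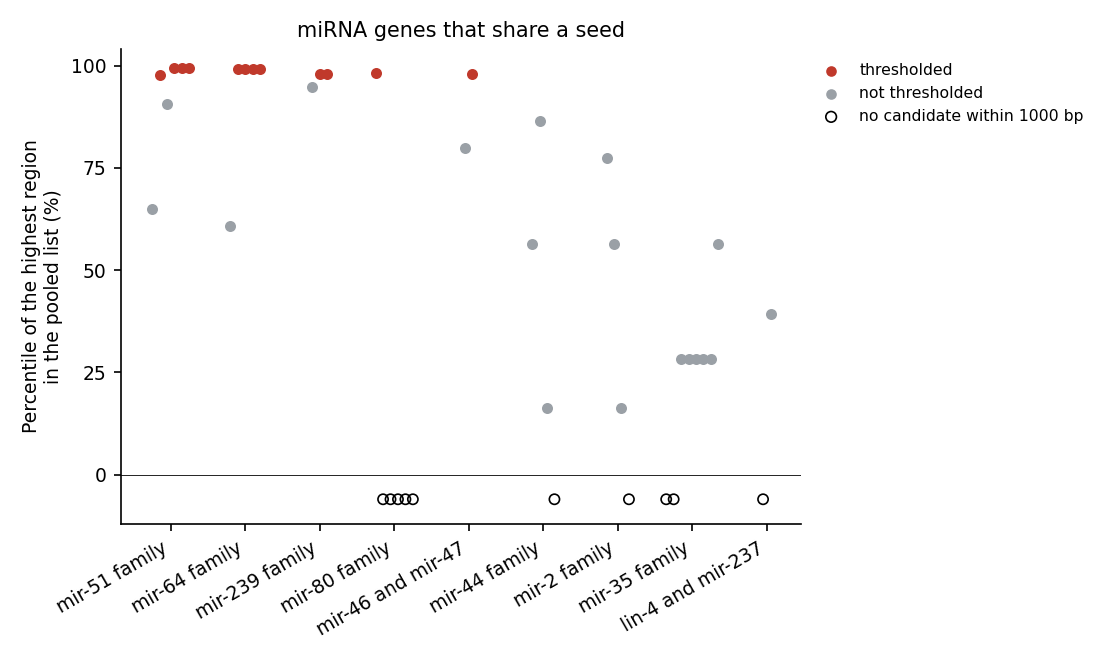
Percentile of the highest region in the pooled list (vertical axis, percent) for each gene of 9 seed groups (horizontal axis); open circles under the line are genes with no candidate within 1000 bp. The red, thresholded genes are in the 5 groups on the left, and the mir-35 family and the lin-4 group have none.

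Of 109 miRNA genes that share a seed with another worm miRNA gene, 55 were members and 14 of those (25.5%) were thresholded, through 8 of 40 regions. Of 151 genes with an annotated mature product that shares none, 90 were members and 8 (8.89%) were thresholded, through 8 of 82 regions. 2 regions are in both counts, those of the mir-54 cluster, where mir-55b shares no seed, and of mir-4810b, whose neighbours share none. The top 857 of replicate 1 held 11 of the members with a shared seed and 8 of the rest, and the top 857 of replicate 3 held 11 and 5. Genes with a shared seed had a median percentile of 83.9, the rest 54.2. Clustered copies raise the gene counts, and the difference was not tested.

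Families differed from each other, as the plot by seed group shows. In the mir-35 family, which is needed in embryos, 6 of 8 genes were members, through 2 regions. None was thresholded, beside 22 of all 145 members, and the median percentile was 28.2. The genes mir-37 to mir-41 shared 1 region of 9.56, 24 bp from the 5′ end of Y62F5A.9, and mir-42 had a region of 12.1 together with mir-43 and mir-44. The genes mir-35 and mir-36 fell just outside the window, at 1161 and 1056 bp. In the mir-2 group the signals were 15.9 at mir-2, 12.1 at mir-43 and 8.79 at mir-250, and mir-797 was no member. In the mir-44 group they were 12.1 at mir-44, 19.6 at mir-45 and 8.79 at mir-61, and mir-247 was no member. Beyond the families described above, thresholded genes that share a seed with another gene were mir-1824, with mir-34 and mir-4933, and mir-71, with mir-2953.

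Of the heterochronic miRNAs, which time the larval stages, 1 of 6 was a member, beside 145 of all 261 miRNA genes. The 1 member was mir-237, with a pooled signal of 10.4 (percentile 39.3). The nearest pooled summit was 5408 bp from lin-4, 1814 bp from let-7, 8475 bp from mir-48, 2358 bp from mir-84 and 9348 bp from mir-241. None of the 5 genes of the let-7 seed group, which also holds mir-795, was a member. The let-7 gene, annotated with a span of 1732 bp, had candidates in both libraries nonetheless. They had 11.7 in replicate 1 (percentile 68.2) and 6.13 in replicate 3 (percentile 84.4), while lin-4, mir-48, mir-84 and mir-241 had none in either. The genes mir-794 and mir-793 have seeds that differ from that of let-7 only in the last base. Both were members, with pooled signals of 17.2 (percentile 81.2) and 8.12 (percentile 4.47).

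Of 7 miRNAs with roles in starvation or lifespan, 6 were members and 4 were thresholded: mir-71, mir-80, mir-239a and mir-239b. The last pair shares 1 region, so this is 3 regions. The median percentile of the 6 was 97.6. The other members were mir-34, with a pooled signal of 21.6 and percentiles of 90.3 and 43.4 in replicates 1 and 3, and mir-235, which holds back blast cell division in starved L1 larvae. The summit at mir-235 was 995 bp away with a signal of 12.4, beside a tRNA gene. No candidate lay within 1000 bp of mir-246, whose nearest was at 1395 bp. The 6 members in 7 stand beside 145 in all 261 miRNA genes. The count of 4 thresholded in 6 stands beside 22 in all 145 members, and the list was drawn up with these results known.

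Over all miRNA genes, 145 of 261 (55.6%) were members, and 22 of the 145 (15.2%) were thresholded. Of 8 miRNAs listed for their tissue, 6 were members and none was thresholded. The highest was mir-60, an intestinal miRNA, with 28.4 at a summit 45 bp upstream. There replicate 1 stood at percentile 97.1 and replicate 3 had no candidate within 200 bp, its highest in the window being at percentile 62.5. The muscle miRNA mir-1 had 8.17, at percentile 5.39 of the pooled list. The signal was 10.8 at lsy-6, which sets the left and right identity of a taste neuron pair, 13.6 at mir-791, 8.12 at mir-793 and 10.9 at mir-243. The neuronal mir-124 and mir-790 were no members, with nearest summits at 6517 and 1277 bp. The median percentile of the 6 was 43.8. Of 10 embryonic miRNAs, mir-35 to mir-44, 8 were members, none was thresholded, and the median percentile was 28.2. The genes mir-37 to mir-41 share 1 region (9.56) and mir-42 to mir-44 another (12.1), so that median is the value of the first region.

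The threshold and the window cut through continuous series of values. The lowest signals above the threshold were 39.8 at mir-71, 41.3 at mir-58a and 41.8 at mir-52. The highest below it were 37.3 at mir-253, 31.0 at mir-79 and 30.4 at mir-8204, followed by 30.3 at mir-228 and 29.2 at mir-83. The region of mir-253 lay 41 bp from the 5′ end of its host F44E7.5, while those of mir-79, mir-228 and mir-83 lay upstream of hairpins outside protein-coding genes. The members nearest to the window's limit were mir-789-1 at 945 bp, mir-273 at 968 bp and mir-235 at 995 bp, and the closest non-members were mir-260 at 1019 bp, mir-1021 at 1040 bp and mir-8193 at 1045 bp.

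**Figure D5:**
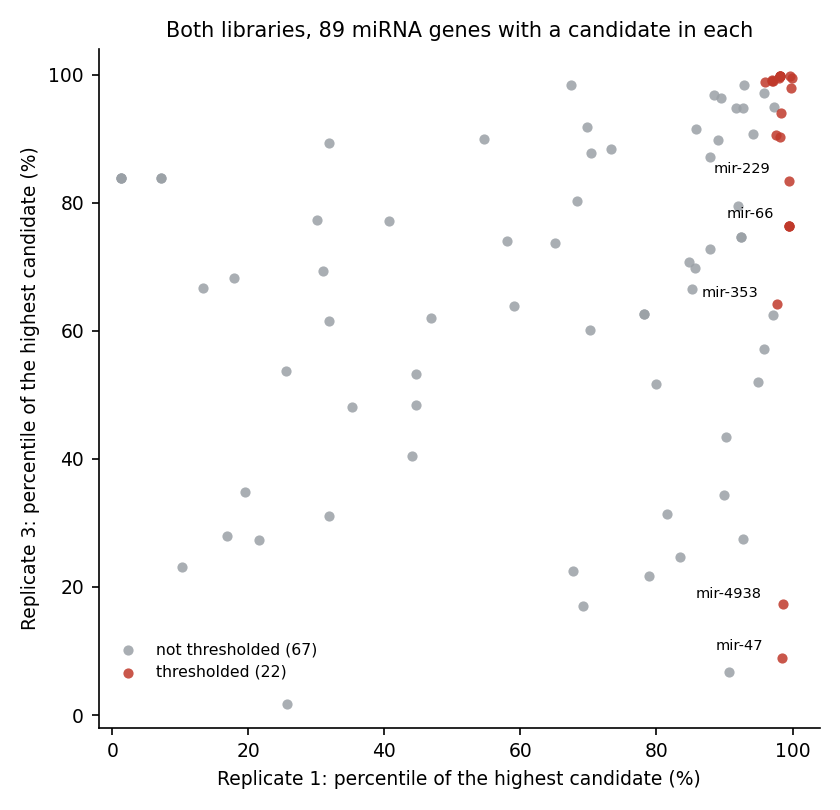
Percentile of the highest candidate in the window in replicate 1 (horizontal axis) and replicate 3 (vertical axis), both in percent, for the 89 members with a candidate in each library. All 22 thresholded genes (red) are at 95.9 or above in replicate 1, while in replicate 3 they reach down to 8.91 at mir-47.

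A candidate in the window was found for 120 members in replicate 1 and for 108 in replicate 3. For 89 members (61.4%) it was found in both, for 31 only in replicate 1, for 19 only in replicate 3 and for 6 in neither. The pooled list contains the same libraries, so this is no independent check of membership. The plot of both libraries shows that the 22 thresholded genes were all high in replicate 1, with percentiles of 95.9 to 99.9 and a median of 98.2. In replicate 3 they ran from 8.91 to 99.9, with a median of 98.4. Among the 857 strongest candidates of a library were 18 of the 22 in replicate 1 and 12 in replicate 3. These counts and the plot use the highest candidate in the window. For mir-353 that was at percentile 64.3 in replicate 3. The replicate 3 candidate at its pooled summit, at percentile 99.1, fell outside the window, so mir-353 is not among the 12. Across all members, 19 were in the top of replicate 1, 16 in that of replicate 3 and 8 in both.

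With the summits matched within 200 bp, 13 of the 15 thresholded miRNA regions had a candidate in both libraries, and mir-47 and mir-4938 lacked one in replicate 3. Of all 857 thresholded regions 95.9% had both. For the members' 120 regions the share was 35.8%, against 27.4% of all pooled candidates. Spearman's rho between the library signals was 0.44 over the 76 distinct regions with a candidate in each window, and 0.41 over the 8206 matched pooled candidates. These are descriptions over regions of the same 2 libraries. Of the 116 non-members, 41 had a candidate in a library and 6 in both, and none of them was in the top 857 of either.

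The sequence within 100 bp of the summits was not used by the rule. Mean GC content was 36.8% over the members' 120 regions (SD 7.87), against 35.1% over all pooled candidates. It was 43.5% over the 15 thresholded miRNA regions and 42.6% over all thresholded regions. Repeat-masked bases made up 28.8% at the members' regions and 35.7% at all candidates. The letters GAGAGA, searched on both strands, occurred at 30 of 120 regions, against 14.3% of all pooled candidates. Among the 105 members' regions that were not thresholded they occurred at 23 (21.9%). At the thresholded miRNA regions it was 7 of 15 (46.7%), against 37.9% of all thresholded regions. Those 7 were at the mir-54 and mir-229 clusters, mir-80, mir-47, mir-58a, mir-71 and mir-5549. The letters are a match only, and their relation to HPL-2 was not tested. All pooled candidates are not a matched background here, because each member's region is the highest of up to 5 summits.

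Among protein-coding genes that make miRNAs or act with them, 15 of the 19 matched by name had a candidate within 1000 bp of a 5′ end, beside 10656 of all 19973 protein-coding genes. Of the 15, 2 were thresholded, beside 8.02% of all protein-coding genes with such a candidate. The first was nhl-2, a cofactor of the silencing complex, with a pooled signal of 127 and library percentiles of 99.9 in both. The other was ain-1, the worm GW182 protein that links Argonaute to decay enzymes, with 58.3 and percentiles of 99.3 and 99.5. The summits lay 849 bp from the nearest 5′ end of nhl-2 and 858 bp from that of ain-1. Both distances are beyond the 500 bp used above for gene starts. Below the threshold were the helicase gene cgh-1 (34.9), lin-28, whose product blocks let-7 processing (33.6), the Argonaute genes alg-5 (30.1), alg-1 (23.7) and alg-2 (10.6), the Drosha partner pash-1 (24.9) and Drosha itself, drsh-1 (9.92). The Dicer gene dcr-1, xrn-1, ebax-1 and cid-1 had none. The median percentile of the 15 was 91.3, against 67.2 over all 10656 protein-coding genes with a candidate there.

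Of 12 genes known as miRNA targets, 8 had a candidate within 1000 bp of a 5′ end, again beside 10656 of 19973 protein-coding genes. Only the muscle factor gene mef-2 with 42.3 was thresholded, or 1 of the 8, beside 8.02%. The gene lin-28 (33.6), named above, is also on this list, so its region enters the medians of both lists. The lin-4 target lin-14 had 31.4, sma-4 had 30.2, cog-1 13.7, nhr-91 13.6, daf-12 13.3 and the let-7 target lin-41 10.5. No candidate was found there for hbl-1, let-60, egl-1 and dbl-1. The median percentile of the 8 was 81.3, against 67.2 over all protein-coding genes with a candidate there.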

How the data were processed

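The deposited value used is the signal of each region, an enrichment value from the authors' caller, in the pooled list, the list of each library and the thresholded list on ce11. Per the file listings, 1 control file entered the calls. Which aligner and caller were run is not stated in the labels or listings. Signals were used only to rank and describe regions within 1 list. The ce10 versions were not used.

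Summits were set against miRNA genes of Ensembl release 115 (WBcel235), and 1 gene, let-7, took its symbol from RefSeq at the same coordinates. All 260 RefSeq miRNA genes had the same coordinates in Ensembl. The 3 symbols that 2 gene records each carry belong to no member. Coordinates are 1-based. Distances run from the nearest hairpin end, and a library candidate within 200 bp counted as at a pooled summit. Scripts used Python 3.11.15, numpy 2.4.6, scipy 1.17.1 and matplotlib 3.10.9, and were tested on simulated lists with planted summits.

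The members and gene lists were chosen with earlier results of these data known. Genes named with values are the thresholded members, which include the 20 with the highest signal, the genes of the fixed families and lists, and those next to the window's limit and the threshold. A few others, such as mir-228, mir-83 and the weaker clusters, were chosen after their values were seen. No test was run, because the rule used the signals. The replicates are biological per the labels. The sequence of 1 family member is not reported here.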

Additional observations from a re-analysis of the deposited data

How the results depend on the processing

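Of 43 values recomputed under another setting, 25 stayed close and 18 moved. A count stayed close if it changed less than 1.5-fold, a wide limit. A median percentile was set against the SD of the 2 libraries' medians, 0.359, a narrow one. A window of 250 bp left 66 members, 55 distinct regions, 5 thresholded members, 57 summits nearer to the hairpin, 32 upstream, 21 members with a candidate in both libraries and a median percentile of 58.3. A window of 500 bp left 106 members and 91 distinct regions, both counted as close. It left 14 thresholded members and 57 with a candidate in both libraries, with a median percentile of 74.8. The 15000 strongest pooled candidates gave 93 members, 79 regions and 52 upstream summits. The median percentile of these members was 76.5, counted within the 15000 candidates and not within the whole pooled list. That median is therefore not on the same scale as the other medians given here. Counting any base of a region gave a median percentile of 60.4. The 428 strongest thresholded regions left 11 thresholded members. With only 1 library's own list, the members were 134 to 141, the distinct regions 116 to 117, those in the top 857 were 16 to 19, the median percentile 68.3 to 68.8, summits nearer to the hairpin 103 to 106 and upstream summits 77 to 84. The count in both libraries cannot be given without a library. The genes mir-229, mir-64, mir-65, mir-66, mir-47 and mir-4938 stood at percentiles of 98.4 or above in replicate 1 alone and of 83.4 or below in replicate 3 alone. No paired analysis was possible because there is 1 group. Depth is unknown, so a missing candidate in a library is not absence of HPL-2.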

Other observations

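Several weaker clusters had 1 region in common. On X, mir-2220, mir-4808, mir-4809 and mir-4810b shared a region with a pooled signal of 19.3, with percentile 78.9 in replicate 1 and no candidate in replicate 3 at mir-2220. Next to them, mir-1018, mir-4923a, mir-4923b and mir-4925 shared one of 11.3, with no candidate in replicate 1 and percentile 87.8 in replicate 3 at mir-1018. On X, mir-73 and mir-74 shared a region of 18.3. Their relative mir-72 on II had one of 21.5, at percentile 91.7 in replicate 1. Replicate 3 had no candidate within 200 bp of that summit, and its highest in the window of mir-72 was 9.14 (percentile 94.9). The duplicate genes mir-8186-1 and mir-8186-2, near the left end of II, shared a region of 25.3 with percentiles of 92.4 and 74.7. The genes mir-61 and mir-250 on V shared a pooled region of 8.79 that had no candidate in either library.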
